A study of Homo sapiens with 32 samples.

Results

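Chtop-only bases are single nucleotides of RNA, each with its strand, that 2 of the 3 Chtop libraries (replicates 2 and 3) both list as crosslinked and that none of the 9 Alyref, Nxf1 or Control libraries lists. The mitochondrial chromosome was left out. There are 12986 of them among the 2502262 crosslinked bases of the series. They are 58.8% of the 22072 bases shared by Chtop 2 and Chtop 3, 2.45% of all bases of Chtop 2 and 3.09% of those of Chtop 3. They were selected on their counts in Chtop 2, Chtop 3 and the 9 libraries of the other groups, so those counts are given as a description without a test.

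The assay was iCLIP, in which UV light joins protein to RNA in living cells, the protein is immunoprecipitated, and reverse transcription stops at the joined base. All 12 libraries are labelled as FlipIn HEK293T cells, a line that derives from human embryonic kidney and carries a recombination site where 1 transgene can be inserted. The 4 groups of 3 libraries express Alyref-FLAG, Chtop-FLAG, Nxf1-FLAG or the FLAG tag without a factor (Control), and all were pulled down with an anti-FLAG antibody (Sigma). Chtop and Alyref were induced with 10 ng/mL tetracycline and Nxf1 with 5 ng/mL, each over 48 h, and an induction of the Control was not given in the sources used here. The protein measured is therefore the tagged transgene product, and nothing in the sources says that replicates came from separate cultures. The spread between replicates may thus be technical.

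Chtop is an arginine-rich RNA-binding protein that is methylated by PRMT1 and works in TREX, the complex that packages mRNA for nuclear export. Together with Alyref it hands mRNA to the export receptor Nxf1. Chtop has been linked to 3′ UTRs and the choice of polyadenylation site, whereas Alyref is known for contacts near the cap and near exon junctions.

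A count of 1 cDNA at a base is called a tag below. Libraries held 47052 to 538844 Chtop tags, 81307 to 631704 Alyref tags, 8134 to 179346 Nxf1 tags and 7017 to 46628 Control tags, and replicate 1 was the shallowest of each group. An unlisted base is weak evidence of absence at this depth, since the limit that 0 tags allow (3 tags) is 4.76 CPM (tags scaled to the library total) in Alyref 2 but 370 CPM in Nxf1 1 and 429 CPM in Control 1. Nxf1 1 stood apart, because its bases met those of replicate 3 libraries more often at an offset than at the neighbouring offsets. Of its 8043 bases, 937 had a Chtop 3 base 3 nt upstream, against 519 at 4 nt and 677 at 2 nt, and 1045 had an Alyref 3 base there. Without Nxf1 1 the rule gave 13018 bases. Control 1 showed a like excess with Alyref 2 at 2 nt (862 of 6955 bases), and without it the rule gave 13000.

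The 12 Chtop-only bases with the most tags in Chtop 2 and Chtop 3 together are shown with 12 nt on each side. They show what sequence lies around the bases with the highest summed counts. The capital marks the crosslinked base. The letters are those of GRCh37, read 5′ to 3′ on the strand of the tag, with T for U.
RBPJ, 3′ UTR, chr4:26433446-26433470, plus strand: ttttccttttttTaaaaaaaaatat
STIP1, 3′ UTR, chr11:63971868-63971892, plus strand: ctcccatagttgGttttttttttat
HOXC4, 3′ UTR, chr12:54449410-54449434, plus strand: ctcctcctccttCcccccctctttc
CFAP97, coding, chr4:186111865-186111889, minus strand: atctactaacgtTaaaaaaagcata
SLIT2, 5′ UTR, chr4:20253596-20253620, plus strand: gcagactgtggtTaaaaaaaagaag
IRS4, 3′ UTR, chrX:107964634-107964658, minus strand: tataagatgtacCaaattaaaaaaa
WSB1, 3′ UTR, chr17:25640268-25640292, plus strand: gaaaaaggatgtCtttttttttttt
GARRE1, 5′ UTR, chr19:34790734-34790758, plus strand: acaaacgccattTaaaaaaaaaaga
SIK3, 3′ UTR, chr11:116714775-116714799, minus strand: gactcttccaccCtttttttttctg
outside genes, chr17:78134952-78134976, plus strand: aacagcagcaggAggaggagcagca
outside genes, chr4:143898264-143898288, plus strand: gagcaacagagtGaaactgcaaaaa
AUTS2, 3′ UTR, chr7:70257617-70257641, plus strand: aagacaacaactAaaaaaaatgcaa

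RBPJ, the DNA-binding factor of Notch signalling, held the base with the most tags, 4 in Chtop 2 and 8 in Chtop 3. The base of STIP1, a co-chaperone, had 1 and 9 tags, and that of HOXC4, a homeobox factor, had 6 and 4. CFAP97 had 5 and 5, SLIT2 and IRS4 had 5 and 4 each, and WSB1 had 3 and 5. The other 5 bases had 7 or 8 tags in all. Chtop 1, the library the rule did not use, listed none of the 12.

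Of the 12, 9 are followed at once by a run of 6 or more identical bases, from 6 nt in HOXC4 to 15 nt in WSB1. Among Chtop-only bases with 1 tag in each library such a run followed 443 of 12315, or 3.6% (95% Wilson interval 3.28 to 3.94). It followed 12.9% of the 544 bases with 3 tags (10.3 to 15.9) and 43.3% of the 127 bases with 4 or more (35 to 52). Over all Chtop-only bases the share was 4.37%. Alyref-only bases, chosen by the same rule for Alyref 2 and 3, gave 4.3%. Bases of Chtop 2 and 3 that another group also listed gave 6.2%, and all bases of Chtop 2 or 3 gave 3.2%. These other sets were not split by tag number, so whether their share also rises with tags was not tested. The runs after Chtop-only bases were of uracil in 474 of 568 cases and of adenine in 78. The authors placed the crosslink at the most 5′ deletion in a read where there was one, and the place of a deletion in a run of equal bases is not unique; its part in these counts was not tested. Wilson intervals here and below cover counting error only.

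Some Chtop-only bases were listed by all 3 Chtop libraries, and these are the only ones with a tag outside the 2 libraries of the rule. By tags over the 3 libraries, the leading 5 in exons were the following, chosen after their values were seen.
VEGFA, 3′ UTR, chr6:43752854-43752878, plus strand: ctctggcatgatCttttttttgtcc
PM20D2, 3′ UTR, chr6:89872209-89872233, plus strand: atgccattctttCtttttttttacc
TUBE1, 3′ UTR, chr6:112392208-112392232, minus strand: atcctgattcttTaaaagtagttat
ZNF711, coding, chrX:84526609-84526633, plus strand: acaaaatgagctAaaaaaacatatg
CCNB1IP1, coding, chr14:20779710-20779734, minus strand: gggccttcaaagTaaaaagaatttg

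The base in VEGFA, an angiogenic growth factor, had 2, 3 and 3 tags in Chtop 1, 2 and 3. It lies 567 nt after the stop codon in a 3′ UTR of 1925 nt. The bases of VEGFA, PM20D2 and ZNF711 stand before runs of 8, 9 and 6 equal bases. In CCNB1IP1, a cyclin-binding ubiquitin ligase, Chtop 1 alone gave 3 tags and the deeper libraries 1 each. A run of 6 or more followed 8 of the 178 Chtop-only bases that Chtop 1 listed (4.49%, 2.29 to 8.62).

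Most Chtop-only bases rest on little. In 12315 of them (94.8%) each library had exactly 1 tag, 544 had 3 tags in all, 81 had 4 and 46 had 5 or more. Just outside the rule lie 3932 bases shared by Chtop 2 and 3 that had exactly 1 tag in the other groups, and that tag was from Alyref in 88.7%, from Nxf1 in 9.13% and from the Control in 2.19%. Chtop 1 listed 178 Chtop-only bases, or 1.37% (1.18 to 1.59). It listed 0.207% (0.197 to 0.217) of the 851088 bases that only 1 of Chtop 2 and 3 held and no other group held. Of the 9086 bases shared by Chtop 2 and 3 that another group also listed, it listed 19.6% (18.8 to 20.4). Chtop 1 is 1 library of 47052 tags, so these shares have no replicate.

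"Only" holds at the single base and not for its surroundings. Another group had a tag within 1 nt of 25.6% of Chtop-only bases, within 5 nt of 52.5% and within 100 nt of 94.4%. An Alyref tag was within 5 nt of 49.2%, an Nxf1 tag within 5 nt of 11.4% and a Control tag within 5 nt of 3.3%. Coincidence also fell off smoothly with distance: of the 529260 bases of Chtop 2, Chtop 3 listed 22072 at the same base, 17571 at 1 nt downstream, 15019 at 2 nt and 10677 at 6 nt. Alyref 2 listed 21099 of them at the same base and 16645 at 1 nt downstream.

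Tags within 30 nt of each Chtop-only base, that base left out, were summed over all Chtop-only bases. A tag near several of them was counted for each, so dense stretches weigh more and the sums are not shares of tags. Tags at neighbouring Chtop-only bases, which the rule requires in Chtop 2 and 3, stayed in. Relative to the tags of the library the sums were 11.5%, 11.4% and 15.6% in Chtop 1, 2 and 3. They were 6.22%, 5.58% and 5.07% in Alyref 1, 2 and 3, and 19.3%, 3.65% and 2.15% in Nxf1 1, 2 and 3. The Control libraries gave 7.4%, 3.23% and 2.56%. Chtop 1 lay with the other Chtop libraries and Nxf1 1 lay above all. Since the rule removed bases with an Alyref, Nxf1 or Control tag, the levels of those groups nearby are not independent of the choice, and the values are a description. Density at 1 to 2 nt over that at 20 to 30 nt was 1.78 to 2.17 in Chtop libraries, 1.86 to 1.91 in Alyref, 1.59 to 2.06 in Nxf1 and 1.53 to 1.77 in Control, so a peak at these places is seen in every library.

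**Figure D1:**
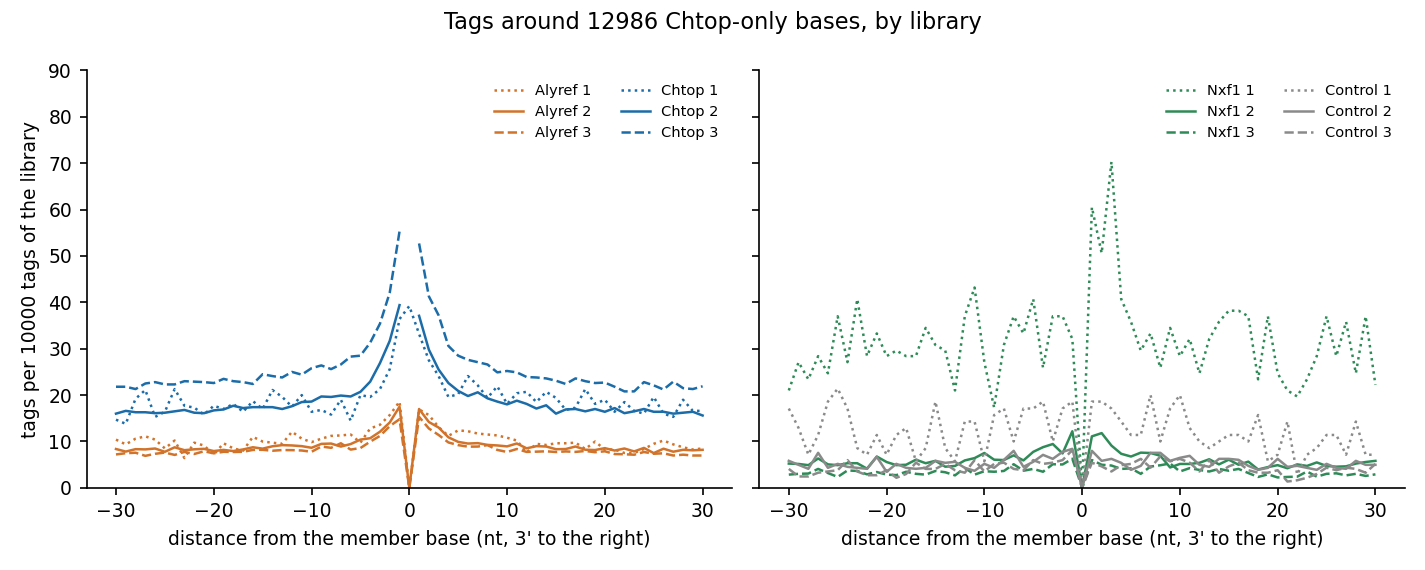
Tags per 10000 tags of each library (y axis) against distance in nt from the 12986 Chtop-only bases (x axis), with Chtop and Alyref on the left, Nxf1 and Control on the right, and a line for each library. A tag near several Chtop-only bases is counted for each of them. Distance 0 is left out for Chtop 2 and 3, and the rule sets it to 0 for the other groups. All libraries rise towards the base, and Nxf1 1 has its highest point, 70.3, at 3 nt downstream.

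The 3′ UTR, the stretch after the stop codon, held the largest share of Chtop-only bases. It held 5658 of them, or 43.6% (42.7 to 44.4), and coding sequence held 4868, or 37.5% (36.7 to 38.3). Exons of non-coding transcripts held 6.61%, 5′ UTRs 4.96%, introns 3.97% and sequence outside annotated genes 3.4%. Bases in both coding sequence and 3′ UTR of different transcripts were called coding; calling them 3′ UTR instead gave 52.8% in 3′ UTRs and 28.2% in coding sequence.

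Alyref-only bases, of which there are 13208, lay in 3′ UTRs in 11.5% and in coding sequence in 45.8%. With 3′ UTR called first these shares were 25.4% and 32%. No Chtop-only base has an Alyref tag and no Alyref-only base has a Chtop tag, so the rules themselves set these sets apart. How much of the difference between them comes from that choice was not tested. With each gene weighted once, the 3′ UTR share was 47.1% for Chtop-only and 14.8% for Alyref-only bases. Bases shared by Chtop 2 and 3 that another group also listed had 24.4% in 3′ UTRs and 19.6% outside genes. Among all 927469 bases of Chtop 2 or 3, 26.8% lay in 3′ UTRs, 28.1% in coding sequence and 23.9% in introns. With 3′ UTR called first, all Chtop bases had 34.5% and the bases that another group also listed had 29% in 3′ UTRs. Chtop-only bases were thus 2.28% of the Chtop 3′ UTR bases, 1.87% of the coding ones and 0.233% of the intronic ones. Tags per RNA were not equalised between these regions, and their part in the ratios was not tested. The 178 bases that Chtop 1 listed divided alike, with 42.7% (35.7 to 50) in 3′ UTRs and 34.3% (27.7 to 41.5) in coding sequence.

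**Figure D2:**
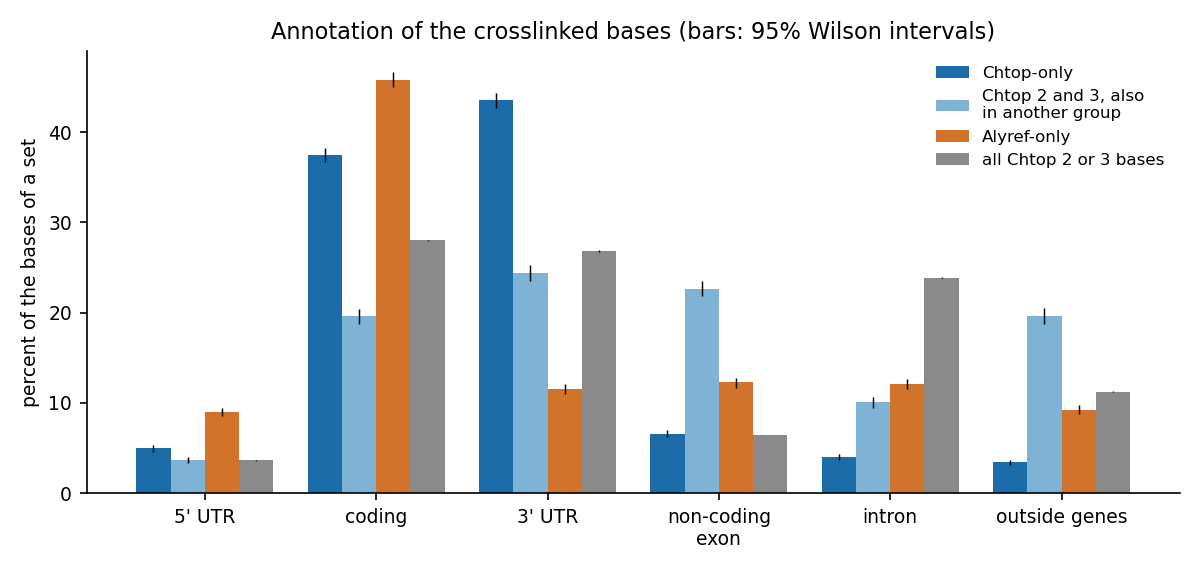
Percent of the bases of each set (y axis) in 6 annotation classes (x axis) for Chtop-only bases, bases of Chtop 2 and 3 also in another group, Alyref-only bases and all bases of Chtop 2 or 3, with 95% Wilson intervals. Coding sequence is called before 3′ UTR here, and the 3′ UTR bar is 43.6% for Chtop-only and 11.5% for Alyref-only bases. With 3′ UTR called first these are 52.8% and 25.4%. The Chtop-only and Alyref-only sets exclude each other's bases by rule.

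Along the exons of canonical transcripts, 56.8% of Chtop-only bases were in last exons, 31.6% in middle exons and 10.3% in first exons. Alyref-only bases, which by rule exclude every base with a Chtop tag, had 18.3%, 65.9% and 15.3%. The last-exon share was 57.9% for the bases that another group also listed and 52.5% for all Chtop bases, near that of the Chtop-only bases. The middle exons that held Chtop-only bases were long, with a median of 250 nt over bases. The median was 129 nt for Alyref-only bases, 191 nt for those that another group also listed and 187 nt for all Chtop bases. Exons of 500 nt or more held 39.1% of Chtop-only bases in middle exons and 3.79% of the Alyref-only ones. They held 29.4% of those that another group also listed and 25.5% of all Chtop bases. In first exons the medians were 1536 nt for Chtop-only and 158 nt for Alyref-only bases. They were 3985 nt for the bases that another group also listed and 561 nt for all Chtop bases. IRS4 alone gave 345 of the 1097 Chtop-only bases in first exons.

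Of the 442 Chtop-only bases outside genes, 13.1% lay within 1000 nt downstream of a gene on that strand. That share was 6.6% for all Chtop bases outside genes and 5.88% for Alyref-only ones.

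Within 3′ UTRs the Chtop-only bases were spread over the whole length and thinned out gradually towards the end. In the 3′ UTRs of canonical transcripts of at least 200 nt there were 5363 of them, in 1897 transcripts. Their mean relative place, from 0 at the stop codon to 1 at the end, was 0.449 (SD 0.283 over bases), and 0.443 with each gene counted once. The 3′ UTRs were divided into 10 equal parts, of which part 1, at the stop codon, held 12.8% of the bases (11.9 to 13.7) and part 10 held 6.54% (5.91 to 7.24). The median base lay 788 nt after the stop codon and 1064 nt before the end. Only 3.08% were within 100 nt of the end, against 6.08% of Alyref-only and 3.88% of all Chtop bases.

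The means for other sets were 0.439 for Alyref-only bases, 0.458 for the bases that another group also listed, 0.452 for all Chtop bases and 0.394 for Nxf1-only bases, of which only 48 entered. From part 1 to part 10 the share fell from 14.4% to 6.84% in Alyref-only and from 13.4% to 7.7% in all Chtop bases. In the bases that another group also listed it fell from 11.9% to 6.82%, so the thinning was not particular to Chtop-only bases. The hexamers AATAAA or ATTAAA, the usual polyadenylation signals, stood within 50 nt downstream of 7.65% of the Chtop-only bases in 3′ UTRs, of 7.36% of the Alyref-only and of 8.06% of all Chtop bases there.

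The place of all 3′ UTR tags in each library, a measure the rule did not use, was compared between groups. Tags at the Chtop-only bases are among them. The mean relative place was 0.456, 0.45 and 0.454 in Chtop 1, 2 and 3. It was 0.444, 0.446 and 0.449 in the Alyref libraries, 0.445, 0.431 and 0.435 in the Nxf1 libraries, and 0.433, 0.449 and 0.444 in the Control. The Chtop values lay above all others, by a difference of 0.0118 from Alyref and Nxf1 together (two-sided exact permutation test, p = 0.0476; adjusted p = 0.267 over 8 tests). Chtop was higher than both factors in 3 of 3 replicate numbers. Against the Control the difference was 0.0114 (exact permutation p = 0.1, adjusted p = 0.267), and 3 libraries against 3 cannot give a p below 0.1. Neither comparison held after correction. Without tags at Chtop-only, Alyref-only and Nxf1-only bases, the difference from the factors was 0.0116 (exact permutation p = 0.0476, adjusted p = 0.267). All 4 groups of a replicate number were sequenced on the same lanes, and replicates 1 and 3 also shared lanes. With the number as a block the exact permutation p was 0.111 against the factors and 0.25, the smallest possible, against the Control.

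**Figure D3:**
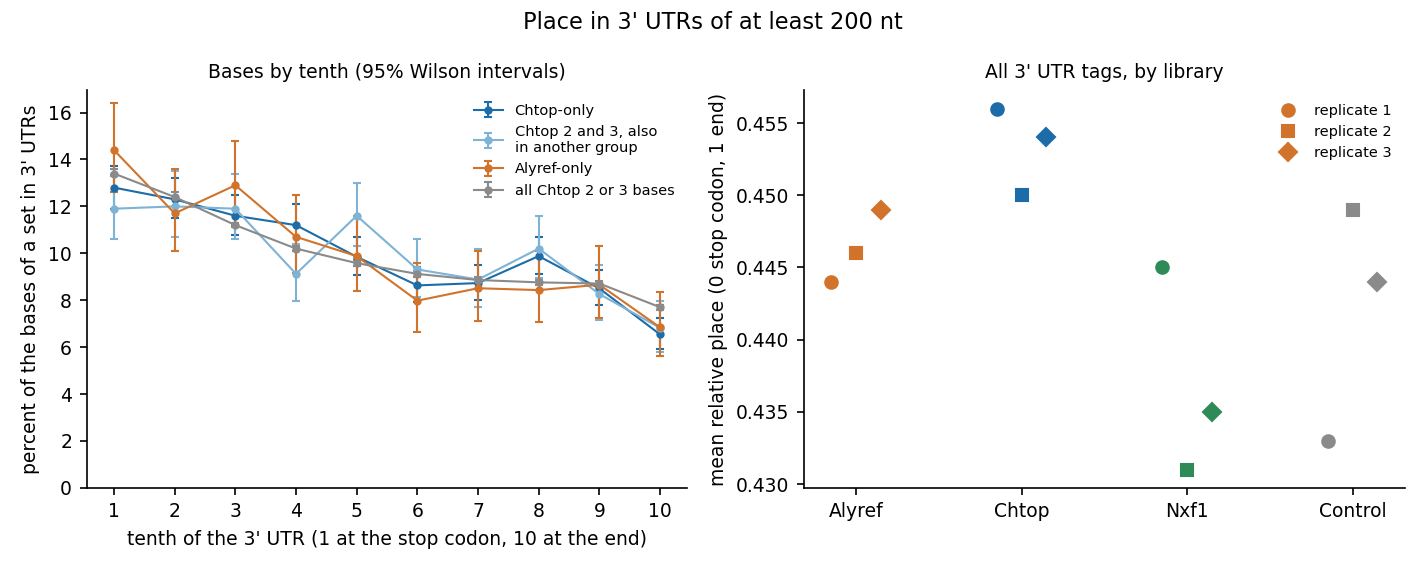
Left, percent of each set's 3′ UTR bases (y axis) by part of the 3′ UTR, from 1 at the stop codon to 10 at the end (x axis), with 95% Wilson intervals. Right, mean relative place of all 3′ UTR tags (y axis, not starting at 0) for each library of the 4 groups (x axis, a symbol for each replicate). Chtop-only bases go from 12.8% in part 1 to 6.54% in part 10, and the 3 Chtop libraries lie at 0.45 to 0.456.

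Uracil was the crosslinked base at 71.9% of Chtop-only bases (71.1 to 72.6), cytosine at 11.4%, adenine at 8.47% and guanine at 8.23%. In 3′ UTRs uracil reached 77.7% (76.6 to 78.8) and in coding sequence 67.4% (66.1 to 68.7). All Chtop bases had 55.5% uracil, Alyref-only bases 64.7% and the shared bases that another group also listed 62.8%. Within regions the order was different, since the bases that another group also listed had the most uracil, 85.6% in 3′ UTRs and 74.8% in coding sequence. Alyref-only bases had 74.5% and 65.9%, and all Chtop bases 61.9% and 49.6%. UV crosslinking is known to favour uracil, and of these sets the Alyref-only bases were chosen in the same way as the Chtop-only ones. The 178 bases in Chtop 1 had 70.8% uracil (63.7 to 77).

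Uracil was also frequent beside the base, at 53.2% one nt upstream and 55.3% one nt downstream, and came down to 33.3% at 3 nt upstream and 33.9% at 3 nt downstream. In 3′ UTRs alone it was 61.6% at 1 nt upstream, 62.2% at 1 nt downstream, 39.4% at 3 nt upstream and 40.7% at 3 nt downstream. It was 31.1% over 123956 windows of 41 nt tiled along the 3′ UTRs that hold a Chtop-only base. At 1 nt upstream and downstream in 3′ UTRs, Alyref-only bases had 60.2% and 65.5% uracil. Bases that another group also listed had 68.5% and 71.3%, and all Chtop bases 49.2% and 51.4%. At 4 nt downstream adenine was 29.7% and cytosine 15.5%, beside 27.5% and 18.4% for all Chtop bases. GC content of the 20 nt on each side averaged 43.7% (SD 14.1 over bases), with 38.3% in 3′ UTRs and 48.8% in coding sequence. All Chtop bases had 44.3%, with 40.2% in 3′ UTRs.

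Motifs were searched on the strand of the tag in the 41 nt around each base. TTTTT stood in 34.2% of the 3′ UTR windows of Chtop-only bases, in 38.3% of the Alyref-only, in 46.9% of those that another group also listed and in 23.9% of all Chtop 3′ UTR windows, with 14.5% of the tiled windows. TGTA, the core of motifs bound by the cleavage factor CFIm and by Pumilio proteins, stood in 21.5%, 18.3% and 20.9%, with 19.6% of the tiled windows. ATTTA, the core of AU-rich elements, stood in 10.1%, 8.68% and 9.46%, with 8.08% of the tiled windows. Purine-rich GAAGAA was in 2.53% of the coding windows of Chtop-only bases, 3.27% of the Alyref-only and 3.47% of all Chtop coding windows. A match of letters is no evidence that a factor binds there.

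**Figure D4:**
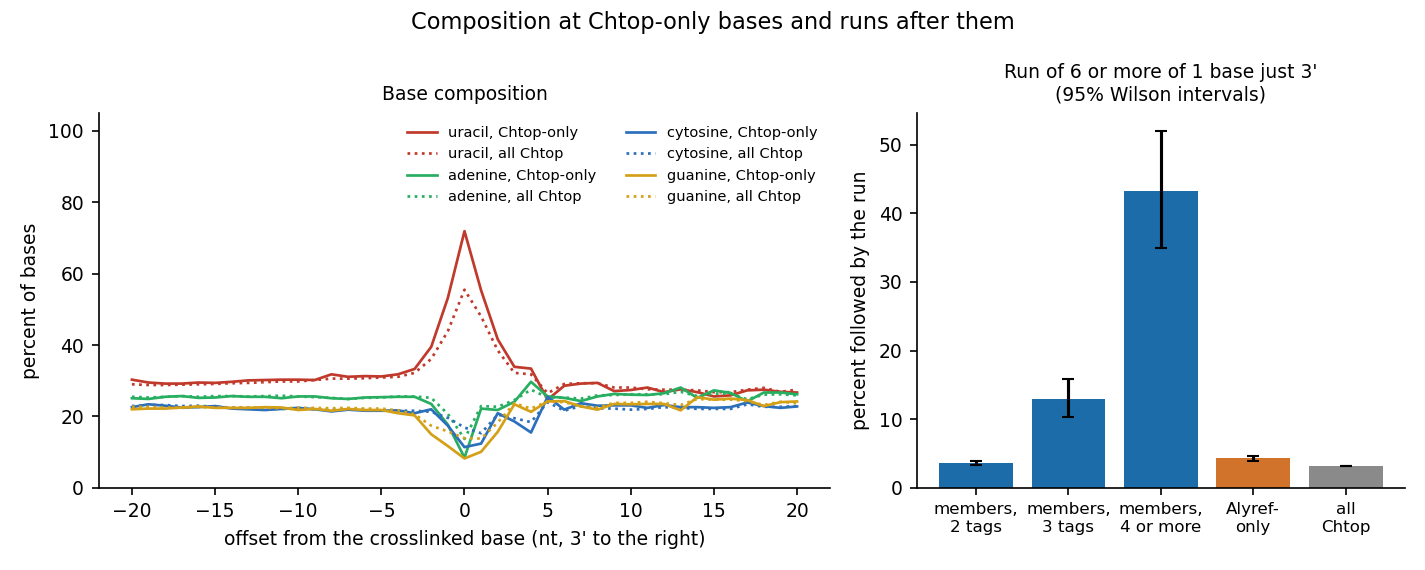
Left, percent of each base (y axis) by offset in nt from the crosslinked base (x axis) for Chtop-only bases (solid) and all bases of Chtop 2 or 3 (dotted). Right, percent of bases followed at once by a run of 6 or more of 1 base (y axis) for Chtop-only bases by tag number, Alyref-only bases and all Chtop bases, with 95% Wilson intervals. Uracil peaks at 71.9% on the Chtop-only base, and the run share is 43.3% for Chtop-only bases with 4 or more tags. Alyref-only bases and all Chtop bases are not split by tag number.

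Over all 3′ UTR tags of each library, no measure of composition passed the test after correction. Uracil at the base was 59.1%, 62.1% and 62.9% in Chtop 1, 2 and 3 and 60.1% to 60.7% in Alyref, whereas Nxf1 1 (49.3%) and Control 1 (48.8%) were low beside the other Nxf1 and Control libraries (56.5% to 60.2%). The difference of 3.05 percentage points from Alyref and Nxf1 had p = 0.333 in the exact permutation test (adjusted p = 0.492), and the 6.67 points from the Control had exact permutation p = 0.1 (adjusted p = 0.267). Without Nxf1 1 the first difference was 1.26 points, and without Control 1 the second was 3.7 points. GC content around the tags was 39.7%, 40.2% and 39.4% in Chtop against 39.9% to 40.8% in the other factors (exact permutation p = 0.202, adjusted p = 0.405). Polyadenylation signals followed 7.74% to 9.03% of Chtop tags and 6.57% to 8.63% of those of the other factors (exact permutation p = 0.369, adjusted p = 0.492). Against the Control the GC difference was 0.317 points (exact permutation p = 0.5, adjusted p = 0.571) and the signal difference -0.102 points (exact permutation p = 0.7, adjusted p = 0.7).

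Chtop-only bases fell in 3138 genes, counting the 11712 bases that lie in a single gene. Of the genes, 1533 held 2 or more, 198 held 10 or more, and the 20 with most held 16.4% of all Chtop-only bases. Of 14619 protein-coding genes with a tag in Chtop 2 or 3, 2973 (20.3%) held a Chtop-only base. Those had a median of 104 Chtop bases and the rest a median of 13, so the genes with Chtop-only bases are also those with most Chtop tags. An Alyref-only base was also present in 1753 of the 3138 genes (55.9%), beside 3627 genes holding one in all. Over the 14619 protein-coding genes with a Chtop 2 or 3 tag, 3303 held an Alyref-only base. Those include many genes with few tags, so the 2 shares are not at like depth.

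IRS4, an adaptor of the insulin and growth factor receptors, held the most by far: 523 Chtop-only bases on the minus strand of chrX:107963176-107979793. Of these, 344 were coding and 178 in the 3′ UTR, and 345 lay in 1 exon of 3985 nt. They were 17.9% of its 2925 Chtop bases, and Chtop 1 listed 19 of them. The share was 1.4% over all RNAs, most of them with few tags, and 3.58% (PRKDC) to 11.4% (ZNF711) in the other leading genes. In IRS4 20 bases were Alyref-only, but that rule drops every base with a Chtop tag. IRS4 is named for its number of Chtop-only bases, so these values are a description. The whole gene had 3620, 3677 and 5460 CPM in Chtop 1, 2 and 3 and 1417, 1272 and 1129 in Alyref 1, 2 and 3. In Nxf1 it had 6663, 624 and 414, and in the Control 857, 302 and 408. All Chtop libraries lay above all Alyref libraries, as they did in 5.49% of the 21925 genes with a tag in Chtop 2 or 3 and in 19.7% of the 1981 genes with at least 100 Chtop bases, and Nxf1 1 stood far above its own group.

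ZNF711, a zinc finger transcription factor gene on the X chromosome, held 290, with 136 coding and 144 in the 3′ UTR, and 229 of them in its last exon of 2707 nt. At 57.5 Chtop-only bases per kb of annotated exon it was denser than IRS4 at 31.5, which has annotated exons over most of its length. ZNF711 had 4068, 3084 and 4684 CPM in Chtop and 2071, 1848 and 1658 in Alyref. In Nxf1 it had 7896, 1249 and 711, again with replicate 1 apart.

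The densest stretches of 100 nt were in these 2 genes. The first, in coding sequence of IRS4, held 22 Chtop-only bases, 8 of them uracil, with 5, 54 and 58 tags in Chtop 1, 2 and 3. Alyref 1, 2 and 3 had 0, 16 and 15 tags there, the Nxf1 libraries 2 each, and the Control libraries 0, 1 and 0. The next, in the ZNF711 3′ UTR, held 19, with 8, 69 and 74 Chtop tags and 2, 30 and 31 Alyref tags. These stretches were found by their number of Chtop-only bases, and the deepest Alyref libraries have tags in both.

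SRRM2 and SON, scaffold proteins of nuclear speckles, held 212 and 72, of which 191 and 58 were coding. In SRRM2 186 lay in 1 middle exon of 6701 nt and in SON 53 lay in 1 of 5916 nt. SRRM2 had 1555, 2288 and 2658 CPM in Chtop and 974, 1037 and 921 in Alyref. All Chtop libraries lay above all Alyref libraries, as in 19.7% of the genes with at least 100 Chtop bases. In Nxf1 1, 2 and 3 SRRM2 had 2714, 607 and 241. The nuclear non-coding RNAs XIST, NEAT1 and MALAT1, which act in X inactivation, paraspeckles and speckles, held 238, 62 and 48, but they also held 373, 67 and 38 Alyref-only bases. NEAT1 had 894, 1926 and 920 CPM in Chtop and 481, 1256 and 1788 in Alyref, which overlap.

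Among the other genes of the leading 20, the bases lay in the 3′ UTR in SLC25A36, a mitochondrial carrier (50 of 53), in SCML1, a Polycomb-like protein (37 of 45), and in GOLGA8A (43 of 45). GOLGA8A and GOLGA8B are near-identical copies whose unique-mapping reads may be split, so that count is uncertain. They were mainly coding in ADGRV1, a giant adhesion receptor (66 of 67), in PRKDC, the catalytic DNA repair kinase (44 of 48), in OGT, the O-GlcNAc transferase (36 of 54), in BTAF1, a TBP-binding ATPase (35 of 48), and in SMG1, the kinase of nonsense-mediated decay (29 of 50). DDX17, an RNA helicase, had 44 in the 3′ UTR and 36 coding. ZNF460, a zinc finger protein, had 26 and 25, and SAT1, which acetylates polyamines, had 23 and 17. SLIT2, an axon guidance ligand, was the exception with 37 of 44 in the 5′ UTR.

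All 3 Chtop libraries lay above all 3 Alyref libraries in CPM over the gene in 12 of the 20 genes. They include IRS4, ZNF711, SRRM2, SON, OGT, SLC25A36, ZNF460, BTAF1, MALAT1, SAT1 and GOLGA8A. The same was found in 19.7% of the genes with at least 100 Chtop bases and in 17.4% of the 3138 genes with a Chtop-only base. SLC25A36 had 490, 517 and 869 in Chtop and 222, 282 and 256 in Alyref, and ZNF460 had 362, 636 and 918 against 234, 195 and 148. PRKDC had 1022, 1452 and 1577 against 1270, 1472 and 1300 and overlapped. The Control was not below Chtop in all of these genes. Its mean CPM was above that of Chtop in MALAT1 (1717 against 1299) and SLIT2 (1472 against 941). The same held in NEAT1 (1816 against 1247) and XIST (7769 against 6944), while the Control mean was lower in the other leading genes. A gene is among these 20 because of its Chtop 2 and 3 tags, so only Chtop 1 is apart from the choice, and it gives no test.

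**Figure D5:**
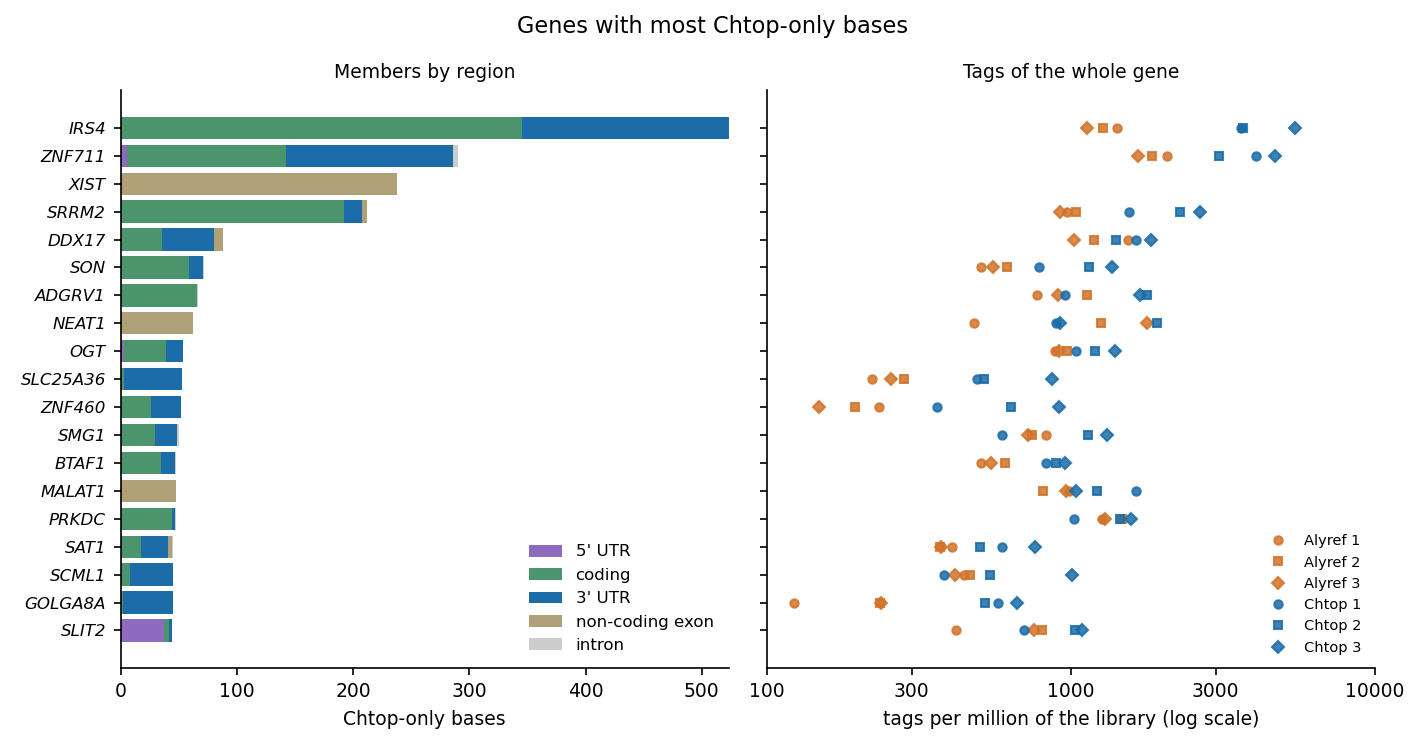
Left, number of Chtop-only bases (x axis) by region in genes among the 20 with most (y axis). Right, CPM over the whole gene (x axis, log scale) in the 3 Chtop and 3 Alyref libraries, with a symbol for each replicate; XIST is not drawn there. IRS4 leads with 523 bases and lies at 3620 to 5460 in Chtop and 1129 to 1417 in Alyref.

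Among TREX and export genes, 5 of 18 with a Chtop tag held a Chtop-only base, beside 20.3% of all protein-coding genes with such a tag. CHTOP itself held 12, of which 6 were coding, and had 128, 251 and 291 CPM in Chtop against 49.3, 98.3 and 113 in Alyref. RNA of the Chtop-FLAG transgene cannot be told apart from that of the endogenous gene in coding sequence. THOC2, the large THO subunit, held 8, and NCBP3, a cap-binding protein, held 6. Of cleavage and polyadenylation genes 8 of 19 held one, led by CPSF6 with 7, all coding, and CPSF4 with 3, all in the 3′ UTR. Of those with at least 100 Chtop bases 7 of 9 held one, near the 80.6% of all protein-coding genes of that depth. In the TREX and export list 3 of 3 such genes did. Of 9 genes for Chtop methylation and its 5FMC partners, only TEX10 held any, with 2.

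SR protein genes, for splicing factors with serine-arginine domains, held Chtop-only bases in 9 of 12, beside 20.3% of all protein-coding genes with a Chtop tag. Of protein-coding genes with at least 100 Chtop bases 1555 of 1929 (80.6%) held one, beside 7 of 7 SR protein genes and 13 of 14 hnRNP genes of that depth. SRSF11 had 42 (37 in the 3′ UTR), SRSF2 23 (16 coding), SRSF10 17 (16 in the 3′ UTR), and SRSF5, SRSF7 and TRA2B 6 each. In hnRNP genes, for abundant nuclear RNA-binding proteins, 14 of 15 with a Chtop tag held one, led by HNRNPU with 27 (20 coding), HNRNPH1 with 19 (15 in the 3′ UTR) and HNRNPA2B1 with 10. HNRNPL had 5 and HNRNPD 3. These 2 families also held 87 and 135 Alyref-only bases against 104 and 76 Chtop-only ones. No tag of Chtop 2 or 3 could be assigned to HNRNPA1, DDX39B or PABPN1 alone, and reads shared with copies or overlapping genes were not counted.

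A small set of 724 Chtop-only bases (5.58%) had no tag of another group within 100 nt. These had 32.6% in 3′ UTRs, 20.4% in coding sequence, 18.4% in introns and 20.6% outside genes. Introns and sequence outside genes held 3.97% and 3.4% of all Chtop-only bases, but 23.9% and 11.2% of all bases of Chtop 2 or 3. The limit of 100 nt by itself picks places where the other groups have few tags. Uracil was at 70.9% of them, and a run of 6 or more followed 8.15%. They were scattered over 484 genes, with at most 4 in a gene (BAX, an apoptosis effector, and NVL, a ribosome biogenesis ATPase), and Chtop 1 listed 9 of them.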

How the data were processed

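The authors removed phiX reads with Bowtie 1.1.2, took random barcodes with UMI-tools 0.5.3, demultiplexed with Reaper, aligned uniquely mapping reads to hg19 with STAR 2.4.2a and Ensembl 75 junctions, merged lanes and collapsed duplicates by barcode. The deposited values are counts of deduplicated reads per crosslinked base and strand, 1 file per library. The 32 lane runs belong to 12 libraries. No (0) per-sample column was left unused. The deposited pools equalled the sum of their replicates.

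Bases were annotated on their strand with GENCODE 44 mapped to GRCh37, with coding sequence taken first, then 3′ UTR, then 5′ UTR, exons of non-coding transcripts and introns. CPM are tags scaled to the library total. Place, GC content, uracil and polyadenylation signals per library over 3′ UTR tags (3′ UTRs of at least 200 nt) were compared by two-sided exact permutation tests, Chtop against Alyref and Nxf1 and against Control, with Benjamini-Hochberg adjustment over 8 tests. The rule and tests were run on simulated data first. Genes named are the 20 with most Chtop-only bases and list genes with 3 or more; exceptions are marked in the text, and 1 gene is not reported here. The members and lists were chosen with earlier results of these data known. Tools were Python 3.11.15, pandas 2.3.3 and pysam 0.24.0.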

Additional observations from a re-analysis of the deposited data

How the results depend on the processing

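The number of Chtop-only bases was 13000 to 14898 when 1 of the 9 excluding libraries was left out. It was 6162 with no tag of another group allowed within 5 nt, 671 with at least 2 tags in a library, and 868 or 1247 when Chtop 1 was paired with Chtop 2 or Chtop 3 in place of the rule. Under these 4 settings the 3′ UTR share was 44.6%, 50.4%, 38% and 37.9%, the coding share 36.6%, 27.9%, 35.3% and 33%, and uracil at the base 73.1%, 62%, 66.8% and 61.7%. The share that Chtop 1 listed was 0.763% and 2.83% under the first 2, and 1.37% to 1.68% without 1 library. The 3′ UTR and coding shares were 52.8% and 28.2% with 3′ UTR before coding sequence, 46% and 35.3% without the 20 leading genes (uracil 74.9%), and 42.6% and 39% without bases followed by a run of 6 or more, a setting chosen after seeing the data. Canonical transcripts alone gave 42.1% in 3′ UTRs. The mean relative place moved only with 2 or more tags, to 0.439. The cause of these shifts was not tested, beyond fewer bases entering.

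With the replicate block (paired labels permuted within a number), the place difference stayed 0.0118 with exact permutation p = 0.111, where 27 arrangements allow no p below 0.037, and no adjusted p fell under the threshold in any setting. Leaving out 1 library gave 0.00969 to 0.0135 for place. The polyadenylation signal difference from the Control, -0.102, changed sign to 0.504 in 3′ UTRs of at least 1000 nt and ran from -0.435 to 0.206 when 1 library was left out, being positive without Chtop 2. Of 189 alternatives, 158 left value or call in place. For the library tests this means only the same sign and an adjusted p still above the threshold. No main comparison had passed that threshold, so the label says little there. Values moved under it, as in uracil against the other factors (3.05 points, and 1.26 without Nxf1 1). Depth limits what is called Chtop-only, since most such bases have 1 tag a library.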
